A study of Mus musculus with 4 samples.

Results

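The 9 genes described here encode the Toll-like receptors Tlr1, Tlr2, Tlr3, Tlr4, Tlr6, Tlr7 and Tlr9 and the LPS co-receptors Cd14 and Ly96. They were chosen by name, and every probe set annotated to one of them alone was read, which gave 13 probe sets of 22690 on the array and 9 of 12393 named genes. RNA was measured in mouse dendritic cells, which present antigen to T cells. By their labels the cells were CD11c+ and came from IL10-/- animals, so the interleukin 10 deficiency is shared by all groups, the media control included. They were incubated for 6 h, and the 4 groups differ in what was added: nothing (media), SEA, LPS, or both agents together (SEA/LPS). Each group had 1 array. LPS is lipopolysaccharide of the bacterial outer membrane. The labels do not spell out SEA, which in work of this kind usually means egg antigen of the worm Schistosoma mansoni, a reading that no value depends on. The labels give 1 lot for all samples and give no tissue of origin, dose, or separate animals or cultures. With 1 array per group no difference has a replicate check, no test was possible, and differences are described by size alone.

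Toll-like receptors are membrane proteins that recognise microbial structures and signal through adaptors such as MyD88 and TRIF to NF-kappaB and interferon regulatory factors. TLR4 binds LPS together with the secreted protein MD-2, encoded by Ly96, after CD14 has passed LPS on to them. TLR2 pairs with TLR1 or TLR6 at the cell surface to recognise bacterial lipopeptides, whereas TLR3, TLR7 and TLR9 sit in endosomes and recognise double-stranded RNA, single-stranded RNA and unmethylated CpG DNA.

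The values are linear array signals, already scaled to one trimmed mean. Median signals lay between 45.0 and 53.2, and a signal at or under 33.3, the 40th percentile of all values, was set to that floor before log2 was taken. The ratio of 3' to 5' Gapdh signal, a sign of RNA integrity, ran from 2.21 in media to 3.12 with SEA/LPS. All 14 dendritic cell markers were named on the array, and 13 of them, Itgax among them, lay above the floor on all 4 arrays. The exception was Flt3, which fell to the floor with SEA/LPS. Of 6 macrophage markers 6 lay above the floor on every array, led by Csf1r, and their summed signal was 7848 in media, 7762 under SEA, 6806 under LPS and 7769.7 under SEA/LPS. The brightest markers of other lineages were S100a8 of neutrophils (182, with 4 of 7 such markers above the floor on all arrays), Col1a2 of fibroblasts (130.5), Blk of B cells (102) and Cpa3 of mast cells (66.5), and no T cell, NK cell or erythroid marker exceeded 50.2. Since the RNA came from bulk cells, fewer cells of a type and less RNA per cell cannot be told apart.

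Promoter windows from RefSeq (GRCm38.p6) were held for 5 of the 9 genes, Tlr1, Tlr2, Tlr3, Tlr6 and Tlr9, in 7 windows, and the 250 bases before each annotated start were searched on both strands. The motifs were the kappaB consensus, the interferon-stimulated response element read as a pair of GAAA runs with any 2 bases between them, TGANTCA of AP-1 and GAGGAA, the PU.1 core. Stretches of 30 bases that hold matches to letters of NF-kappaB, interferon-response and AP-1 factors, which act downstream of the receptors, are shown with the matching letters in capitals.
Tlr2, chr3:83841762-83841791, minus strand: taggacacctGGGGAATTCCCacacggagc
Tlr3, chr8:45410572-45410601, minus strand: agttgtttctGGGAGTTTCCtgcttttgag
Tlr6, chr5:64959260-64959289, minus strand: ctattctTTTCTCTTTCACTTTCtgtttga
Tlr9, chr9:106222528-106222557, plus strand: gcaaatgatgtgTGACTCAttgtaccacct
The Tlr2 capitals hold 2 overlapping kappaB matches, and those of Tlr3 hold 1. The Tlr6 capitals hold 2 overlapping matches to the interferon-stimulated response element on the opposite strand, and those of Tlr9 hold the AP-1 letters. The kappaB consensus was found in 7.25% of 32851 windows of this length, the interferon-stimulated response element in 2.98%, TGANTCA in 6.75% and GAGGAA in 23.3%. GAGGAA was also found before Tlr1 and Tlr9. The Tlr2, Tlr3 and Tlr6 stretches precede an annotated start but lie inside the full span of their gene. Those spans reach to bases 83841824, 45411075 and 64970942. The Tlr9 stretch lies before its gene, which begins at base 106222598. The other Tlr6 window held no match. A match is a run of letters and does not show that a factor binds there.

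The genes of LPS recognition did not move together. Cd14, which captures LPS at the cell surface, had a signal of 1559 in media, 3112 under SEA, 5401 under LPS and 4499.5 under SEA/LPS. All 3 exposed arrays were above media, with LPS highest. It was 3.46-fold higher with LPS than with media, and 1.996-fold higher with SEA than with media, just under the 2-fold size used as a threshold. Adding SEA to LPS gave a log2 difference of -0.26.

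Tlr4, the signalling receptor for LPS, had a signal of 195 in media, 268 under SEA, 106 under LPS and 211 under SEA/LPS on the probe set used. It was lowest with LPS and highest with SEA, and with SEA/LPS it stood close to media (0.11 log2). It was 1.85-fold lower with LPS than with media and 1.99-fold higher with SEA/LPS than with LPS, both within 2-fold. The other Tlr4 probe set read 116 in media, 186 under SEA, 36.7 under LPS and 104 under SEA/LPS. It gave larger sizes in the same directions, 3.16-fold lower with LPS and 2.83-fold higher with SEA/LPS than with LPS, and it also placed SEA highest and LPS lowest. On this probe set SEA/LPS lay slightly under media (-0.16 log2).

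Ly96, which encodes MD-2, the part of the complex that holds the lipid of LPS, was nearly level. Its signal was 151 in media, 150.3 under SEA, 160.0 under LPS and 198.5 under SEA/LPS. The first 3 arrays lay close together and SEA/LPS was highest, 1.24-fold above LPS. Its log2 difference of 0.08 with LPS over media turned to -0.47 when arrays were scaled to the hybridisation controls.

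**Figure D1:**
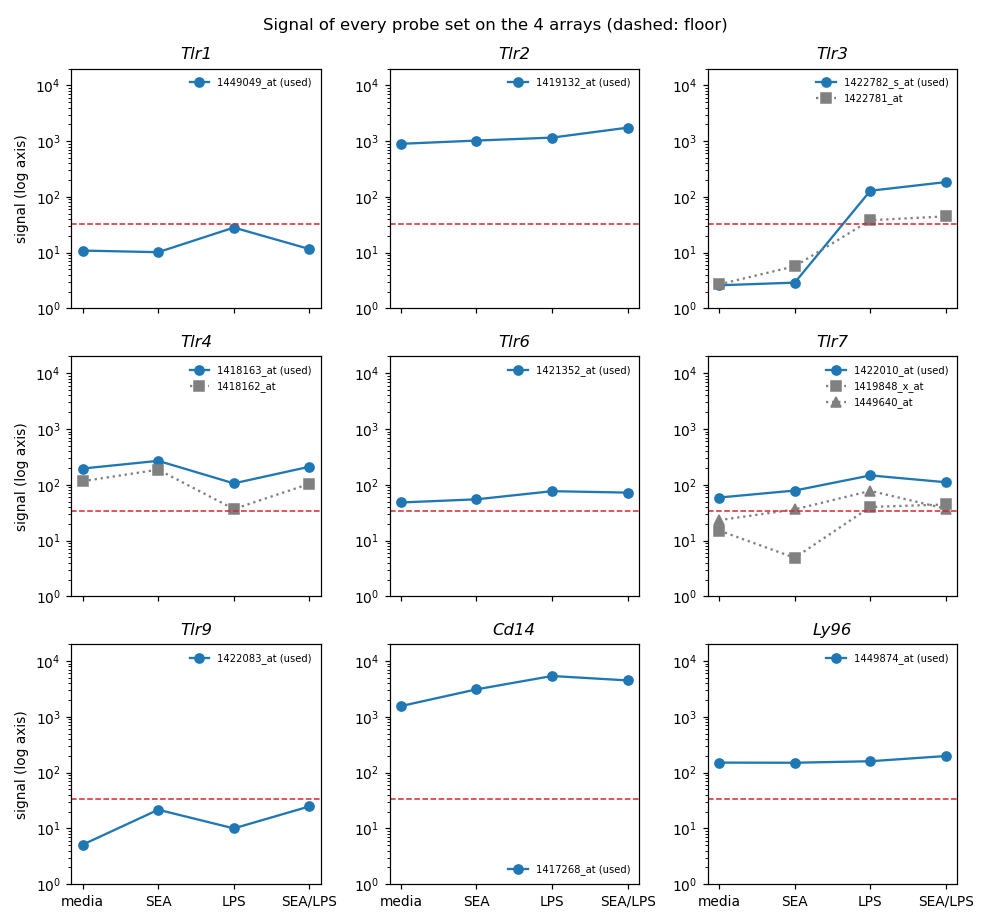
Signal of all 13 probe sets (vertical log axis) on the 4 arrays, 1 panel per gene, with 1 point per array. Blue points mark the probe set used for the gene, grey points its other probe sets and the dashed line the floor of 33.3. Cd14 was above media on all 3 exposed arrays, both Tlr4 probe sets were lowest with LPS, and Tlr1 and Tlr9 stayed under the floor.

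Among receptors of the cell surface that recognise lipopeptides, Tlr2 was well above the floor on all 4 arrays. Its signal was 895 in media, 1023 under SEA, 1157 under LPS and 1744 under SEA/LPS. SEA/LPS stood highest, 1.95-fold above media and 1.51-fold above LPS, and the other 3 arrays lay closer to each other. The log2 difference with LPS over media was 0.37, and it turned to -0.18 when arrays were scaled to the hybridisation controls.

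Tlr6, a partner of Tlr2, had signals near the floor, 48.1 in media, 54.8 under SEA, 76.7 under LPS and 72.3 under SEA/LPS. Both arrays with LPS were above both without it, by 0.67 log2 for LPS over media and 0.40 for SEA/LPS over SEA. Its difference of -0.09 with SEA/LPS over LPS changed sign under quantile normalization (0.07) and scaling to the hybridisation controls (0.15).

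Tlr1, the other partner of Tlr2, was under the floor on all 4 arrays, with signals of 10.9 in media, 10.2 under SEA, 28.2 under LPS and 11.6 under SEA/LPS. Values under the floor have no order, so no difference is given for it.

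The endosomal receptors split into a gene at the floor and a pair that was higher with LPS. Tlr3, the sensor of double-stranded RNA, had a signal of 2.60 in media, 2.90 under SEA, 129 under LPS and 184 under SEA/LPS. It was detected above the floor with LPS and SEA/LPS, and lay at the floor on the other arrays. It was at least 3.87-fold higher with LPS than with media and at least 5.54-fold higher with SEA/LPS than with SEA, both bounds against the floor. The probe set used is marked as able to match several transcripts. The other Tlr3 probe set showed the same split at lower signals, 2.70 and 5.70 without LPS against 38.2 with LPS and 44.7 with SEA/LPS, for a bound of at least 1.15-fold with LPS.

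Tlr7, a sensor of single-stranded RNA, had a signal of 59.0 in media, 78.7 under SEA, 147 under LPS and 111 under SEA/LPS. LPS was highest and media lowest. It was 2.49-fold higher with LPS than with media, and its log2 difference with SEA/LPS over LPS was -0.41. A second probe set read 23.2 in media, 36.1 under SEA, 77.7 under LPS and 37.1 under SEA/LPS, and there SEA/LPS was 2.09-fold lower than LPS. The third, marked as able to cross-hybridise, read 15.1, 4.90, 40 and 44.3 in the same order of arrays, with SEA/LPS slightly above LPS. Thus all 3 Tlr7 probe sets were higher with LPS than with media, but they did not share a direction for SEA/LPS over LPS. As a mean over them Tlr7 differed by 0.93 log2 with LPS over media, within 2-fold.

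Tlr9, the sensor of CpG DNA, was under the floor on all 4 arrays, with signals of 5.10 in media, 21.6 under SEA, 10 under LPS and 24.8 under SEA/LPS. Tlr7 and Tlr9 are known as receptors of plasmacytoid dendritic cells, and 5 of 7 markers of that cell type were named on the array. Their summed signal was 394 in media, 475 under SEA, 1543 under LPS and 1462 under SEA/LPS. Of the 5, Bst2 and Tcf4 were past 2-fold higher with LPS over media. Spib read 50 in media, 72.4 under SEA, 71.2 under LPS and 44.1 under SEA/LPS, Ccr9 lay at or near the floor, between 9.0 and 36.1, and Ly6d was under the floor on all 4 arrays. The part of these cells in the Tlr7 difference was not tested.

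LPS over media showed 3 of the 9 genes at 2-fold or more higher, Cd14, Tlr7 and Tlr3, and 0 lower. Among all 9473 genes measured on at least 1 array, 6.06% were higher by that rule and 8.43% lower. Only 7 of the 9 passed the floor, and Tlr3 passed it through the arrays where it was high. By size of difference Cd14 ranked 206 from the top of 9473 genes, Tlr7 ranked 354 and Tlr4 ranked 8435, while Tlr3, known only by a bound, is given no rank. The median log2 difference was 0.37 over the 9 genes, counting those at the floor as 0, and -0.06 over all measured genes. That median, and the balance of higher and lower genes, depended on the scaling. Of all genes past 2-fold, the share that was higher was 41.8% for the deposited values, 55.4% after scaling to the 75th percentile and 10.5% after scaling to the hybridisation controls, where the median of all genes was -0.56. Those controls, RNAs added to every sample, were 0.55 log2 brighter with LPS than with media on average. Under that scaling Tlr7 read 0.77 and Tlr4 -1.43, past 2-fold lower.

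SEA over media had 0 of the 9 genes at 2-fold or more in either direction, against 0.644% of all genes higher and 0.633% lower. Cd14 (0.997 log2) ranked 64 from the top of 9473 genes, followed among the 9 by Tlr4 (0.46) and Tlr7 (0.42). Tlr2 (0.19) and Tlr6 (0.19) differed less and Ly96 stood at -0.01. The median over the 9 genes was 0.19 and over all measured genes 0.

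SEA/LPS over LPS also had 0 of the 9 genes at 2-fold or more higher and 0 lower, against 1.39% of all genes higher and 3.47% lower. Tlr4 (0.99 log2) was ranked 138 from the top of 9473 genes, and Tlr2 (0.59) and Tlr3 (0.52) were also above 0. Cd14 (-0.26) and Tlr7 (-0.41) were below 0. Tlr4 passed 2-fold when arrays were scaled to the 75th percentile (1.06), under quantile normalization (1.02), when scaled to the hybridisation controls (1.23) and as a mean of its probe sets (1.25). The share of called genes that were higher was 28.6% in the deposited values, 39.5% if scaled to the 75th percentile, 43.3% after quantile normalization and 69.1% with the hybridisation controls as the scale, which also put the overall median at 0.11 in place of -0.01.

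**Figure D2:**
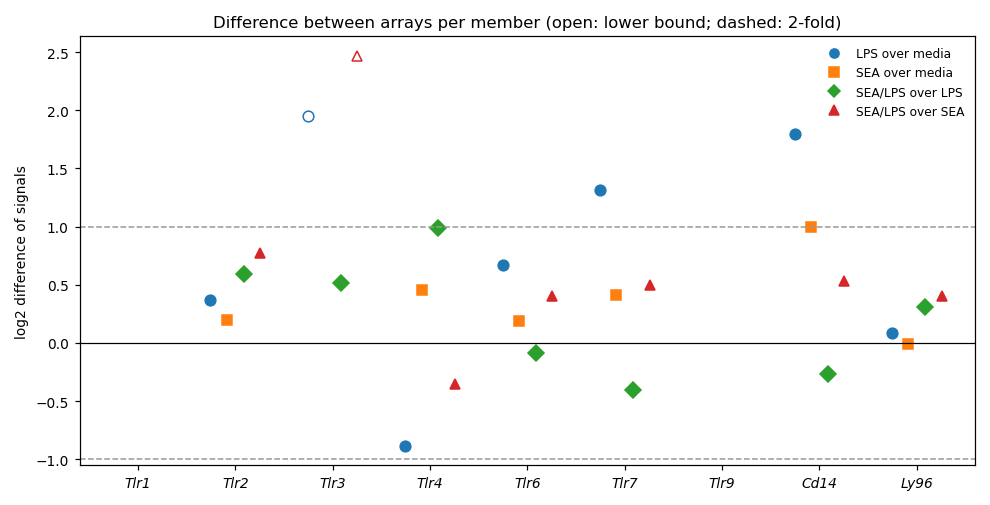
Log2 difference of signals (vertical axis) for each gene in 4 comparisons, with 1 point per gene and comparison. Open points are lower bounds against the floor and the dashed lines mark 2-fold. Cd14, Tlr7 and Tlr3 lie past the line for LPS over media, and Tlr4 is the only one of the 9 below 0 there.

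SEA/LPS over SEA asks what LPS does in cells that also meet SEA, and Tlr3 was the 1 gene of the 9 at 2-fold or more higher, with 0 lower. Of all measured genes 4.67% were higher and 6.38% lower. Tlr3 counts as measured only through the 2 arrays where it was high, so its call is not set against that share. Its value is a bound, and its other probe set gave a bound of at least 1.34-fold, within 2-fold. Tlr2 differed by 0.77 log2, Cd14 by 0.53, Tlr7 by 0.49, Tlr6 and Ly96 by 0.40 each, and Tlr4 by -0.35. Set beside LPS over media, the values were 0.53 against 1.79 for Cd14, 0.49 against 1.32 for Tlr7 and -0.35 against -0.88 for Tlr4, while those of Tlr2 (0.77 against 0.37) went the other way. These pairs of values come from different control arrays and were not tested against each other. The share of called genes that were higher was 42.3% in the deposited values, 61.8% if scaled to the 75th percentile, 56.2% after quantile normalization and 22.0% when scaled to the hybridisation controls, with medians of all genes at -0.15, 0, -0.03 and -0.37.

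The SEA difference with LPS minus that without it could be given for the 6 genes above the floor on all arrays. Cd14 was the 1 gene past 2-fold, at -1.26 log2, and 0 were past it upwards. Of 7142 genes, 2.95% were higher and 5.91% lower by this measure. Tlr7 stood at -0.82, Tlr6 at -0.27, Ly96 at 0.32, Tlr2 at 0.40 and Tlr4 at 0.53. Only the value of Tlr6 changed sign under a scaling, to 0.05 with the hybridisation controls, where Cd14 read -0.93. The share of called genes that were higher was 33.3% in the deposited values, 43.9% if scaled to the 75th percentile, 45.1% after quantile normalization and 81.7% with the hybridisation controls, where the median of all genes was 0.30 in place of -0.02.

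**Figure D3:**
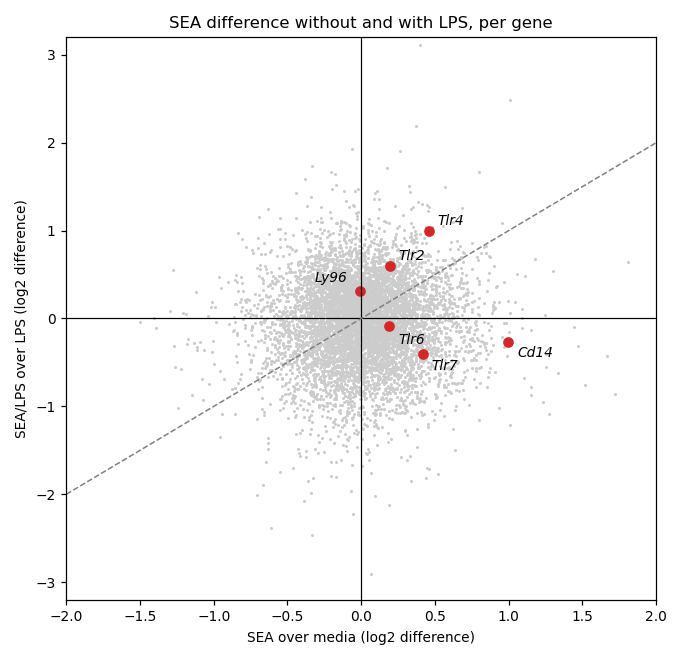
Log2 difference of SEA over media (horizontal axis) and of SEA/LPS over LPS (vertical axis), with grey points for 7142 genes above the floor on all 4 arrays and red points for the 6 of the 9 genes among them. On the dashed line both differences are equal. Tlr4 and Tlr2 lie above 0 on both axes, and Cd14 lies near 1 on the horizontal axis and below 0 on the vertical one.

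Over the 3 log2 differences from media, the closest pair among the 6 of these genes above the floor on all 4 arrays was Tlr2 and Tlr6 (distance 0.48) and the farthest was Tlr4 and Cd14 (distance 3.08), both parts of LPS recognition. For each of the 3 of those 6 with a 2-fold spread over the arrays, the nearest genes were taken out of 7141 by the same distance. Nearest to Tlr4 were Lrrk1 (0.15), Clec7a (0.15) and Aqp9 (0.18). Clec7a encodes dectin-1, a receptor for fungal beta-glucan, and read 2389.6 in media, 3023.5 under SEA, 1369.5 under LPS and 2681 under SEA/LPS. That is the order seen for Tlr4 on the probe set used, from which these distances were taken. The other Tlr4 probe set placed media above SEA/LPS. Nearest to Tlr7 were Rimklb (0.12), Mul1 (0.22) and Il13ra1 (0.22), a receptor chain for IL-13. Nearest to Cd14 were Trim25 (0.21), Rab32 (0.38) and Phlda1 (0.41), of which Trim25, a ubiquitin ligase of antiviral signalling, read 299 in media, 518.5 under SEA, 1048 under LPS and 887 under SEA/LPS. These likenesses rest on 4 arrays.

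Other genes of the pathway were read in 6 lists. These were chosen with earlier results of these data known, so their counts beside the shares of all genes are description only. Of 5 other Toll-like receptors, Tlr5 and Tlr8 were named on the array and neither passed 2-fold in any of the comparisons. Tlr5, the flagellin receptor, read between 58.1 and 75.4, and Tlr8 was lowest with LPS (42.3) and highest with SEA (71.5). Of 7 genes of LPS binding and the RP105 complex, 2 were lower with LPS than with media and 0 higher (median -0.29), where 8.43% of all measured genes were lower and 6.06% higher. These were Cd36, a scavenger receptor that assists TLR2, at -1.21 and Itgam, a chain of complement receptor 3, at -1.11. Other Cd36 probe sets read -0.61 and 0.26. Cd180, the Toll-like protein RP105, stood at 0.81 and its partner Ly86 at 0.06, and the brightest gene of the list, Itgb2, at -0.29. With SEA/LPS over LPS 0 of the 7 passed 2-fold, against 1.39% of all genes higher and 3.47% lower.

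Chaperones and traffic genes had 11 of 13 members measured, of which 1 was lower and 0 higher with LPS (median 0.05), a share near the 8.43% of all genes that were lower. Unc93b1, which carries the endosomal receptors from the endoplasmic reticulum, read 960.5 in media, 913 under SEA, 1135 under LPS and 951 under SEA/LPS. These 4 values lay close together. Hsp90b1, the chaperone gp96 of Toll-like receptors, stood at -0.67 with LPS over media and Cnpy3, its co-chaperone, at -0.80. The gene past 2-fold was Slc15a4, an endolysosomal transporter that acts in TLR7 and TLR9 signalling, at -1.25. The protease Ctss was the brightest of the list, at 0.19.

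Adaptors and kinases had 9 of 15 members measured. With LPS over media Tab2 (1.08) and Ikbke (1.06), both of kinase complexes downstream of the receptors, were past 2-fold higher and Tab1 (-1.20) past 2-fold lower, with a median of 0.53. The shares of all genes were 6.06% and 8.43%. The other Tab2 probe set read 0.92 with LPS over media, within 2-fold. Myd88, the adaptor shared by most Toll-like receptors, read 702 in media, 582 under SEA, 1148 under LPS and 1272 under SEA/LPS. Both arrays with LPS lay above both without it, and Myd88 was past 2-fold in SEA/LPS over SEA (1.13), as was Tbk1, a kinase of the TRIF branch (1.19). Of all genes 4.67% were higher in that comparison and 6.38% lower. The other Tbk1 probe set read 0.72 in it, within 2-fold. With SEA/LPS over LPS 0 of the 9 passed 2-fold on the probe sets used. Other Irak1 probe sets read 1.64, 0.26 and -0.07 there, beside 0.57 on the one used. With LPS over media they read -2.30, -0.94 and -0.88, beside -0.64. The values 0.26 and -0.94 are bounds, as that probe set was under the floor with LPS (20.5). Another Map3k7 probe set (31.9 with LPS, 66.7 with SEA/LPS) lay just past 2-fold higher with SEA/LPS over LPS, as a bound. Its remaining ones stayed within 2-fold there. Other Traf6 probe sets read 1.33 and 0.71 with LPS over media, beside 0.53 on the one used. The value 1.33 is a bound, as that probe set was at the floor in media (33.3).

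Inhibitors of the pathway had 8 of 14 members measured, and 5 of these were higher with LPS and 0 lower (median 1.14), against 6.06% of all measured genes higher and 8.43% lower. Zc3h12a, an RNase that degrades cytokine transcripts, was at the floor in media and with LPS stood at least 8.52-fold higher, Trim30a stood at 2.67, Tnfaip3, which encodes the ubiquitin editor A20, at 2.29, Socs1 at 1.18 and Atf3 at 1.10. With SEA/LPS over LPS, Tnfaip3 (-1.23) and Atf3 (-1.10) were past 2-fold lower and 0 were higher (median -0.50, with 3.47% of all genes lower). Tollip was within 2-fold on the probe set used, at 0.39 with LPS over media and -0.60 with SEA/LPS over LPS. Its other probe set stood past 2-fold in both, at 1.34 and -2.36. Socs1, Zc3h12a, Trim30a and Tnfaip3 were past 2-fold higher in SEA/LPS over SEA and 0 were lower, against 4.67% of all genes higher and 6.38% lower.

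Transcription factors that act on genes of the receptors had 11 of 13 members measured. With LPS over media Irf7 (3.75), Stat2 (3.26), Rel (2.58) and Irf8 (1.96) were past 2-fold higher, and Cebpa (-2.0) past it lower, against 6.06% of all genes higher and 8.43% lower. Spi1, which encodes PU.1, stood at -0.82, and the brightest of the list, Cebpb, at 0.36. With SEA/LPS over LPS 3 were past 2-fold lower, Stat2 (-2.91), Rel (-1.23) and Irf8 (-1.0), and 0 were higher, with 3.47% of all genes lower and 1.39% higher. Irf3 stood at -0.04 there on the probe set used, and its others at -1.39, 0.08 and a bound of -0.33. In SEA/LPS over SEA, Irf7 (2.55) and Rel (1.54) were higher, against 4.67% of all genes. In SEA over media, 0 genes of the 6 lists passed 2-fold, against 0.644% of all genes higher and 0.633% lower. With shares this small, the count of 0 is not read as a result about the lists.

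**Figure D4:**
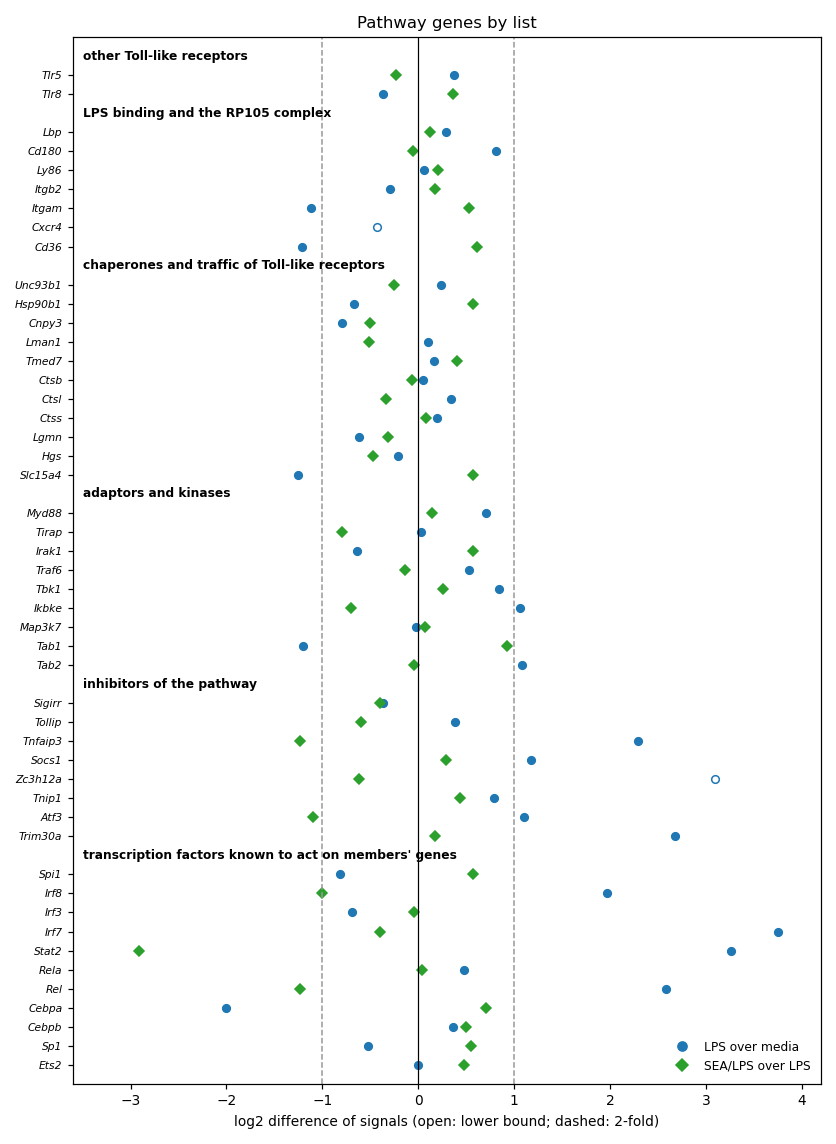
Log2 difference of signals (horizontal axis) for each measured gene of the 6 lists, with circles for LPS over media and diamonds for SEA/LPS over LPS. Open circles are bounds and the dashed lines mark 2-fold. The inhibitors have 5 of 8 circles past 2-fold, and Tnfaip3, Atf3, Stat2, Rel and Irf8 have diamonds at or past 2-fold lower.

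**Figure D5:**
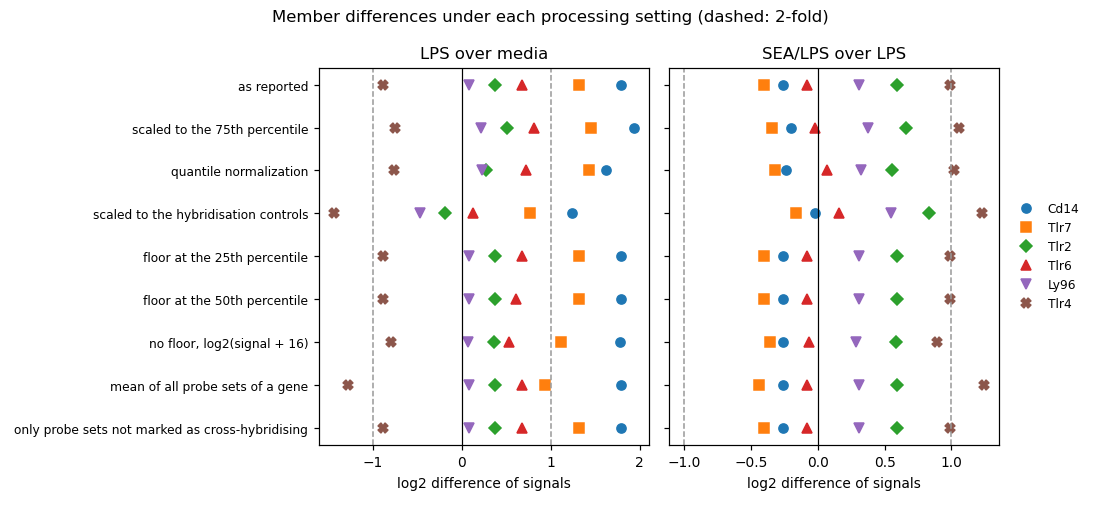
Log2 difference (horizontal axis) of the 6 genes above the floor on all arrays under each way of scaling, flooring and choosing probe sets (rows), with LPS over media in the first panel and SEA/LPS over LPS in the second. Dashed lines mark 2-fold. Tlr4 lies left of 0 in the first panel and near or past the line in the second in every row, and scaling to the hybridisation controls moves Tlr2 and Ly96 below 0 in the first.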

How the data were processed

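One table of the whole series was used, with 1 column for each of 4 arrays and 22690 Affymetrix probe sets. Its deposited unit is a linear 1-colour intensity, judged from the values, with 2% trimmed means of 150.1 in each column, so the authors had already scaled the arrays. The software, background step and scaling rule they used are not stated in any source here. Probe sets were named through the platform annotation: 20380 had 1 gene symbol, 691 several and 1555 none, beside 64 array controls, and 20351 matched RefSeq genes of GRCm38.p6. The intensities were floored at the 40th percentile (33.3) and log2 was taken. The probe set with the highest mean stood for its gene, a gene was measured when 1 array lay above the floor, and 2-fold was the size threshold. The difference of SEA differences used genes above the floor on all arrays. No test was run, and precision is limited by how few arrays there are and, for dim genes, by the floor. Named genes were all 9, the 3 genes nearest to each of those with a 2-fold spread, and genes of the lists past 2-fold, the brightest included. Irak1, Traf6, Map3k7, Tollip and Irf3 were named because a probe set other than the one used was past 2-fold. Further list genes named for their role (Tlr5, Tlr8, Cd180, Ly86, Unc93b1, Hsp90b1, Cnpy3, Spi1 and Myd88 with LPS over media) lie outside this rule, since they were picked once their values had been seen. The genes and lists were chosen with earlier results of these data known. Alternatives changed the scaling, the floor, the probe set and the threshold. The calculation was tested on simulated data. Python 3.11.15, numpy 2.4.6, pandas 2.3.3 and matplotlib 3.10.9 were used.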

Additional observations from a re-analysis of the deposited data

Results flagged for a closer look

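With 1 array per group, a gene is listed here when its SEA difference had opposite signs without and with LPS, and the difference between them was not tested. Of 7142 genes above the floor on all arrays, 49.7% had opposite signs. Among the 6 of the 9 genes that could be read this way, Cd14 went from 0.997 log2 without LPS to -0.26 with it (-1.26 between them), Tlr7 from 0.42 to -0.41 (-0.82), Tlr6 from 0.19 to -0.09 (-0.27) and Ly96 from -0.01 to 0.31 (0.32). Tlr2 and Tlr4 were above 0 both times. Pathway genes with opposite signs and at least 2-fold between both differences are given with the SEA difference with LPS minus that without it. On the probe sets used, this value was negative for Stat2 (-2.97), Irf7 (-1.20), Irf8 (-1.12) and Tirap (-1.01). It was positive for Slc15a4 (1.26) and Cebpa (1.07). The other Irf8 probe set did not share the opposite signs, at -0.26 without LPS and -1.67 with it. The other Tirap probe set lay under the floor on all arrays, and the other Stat2 probe set lay under it in media and under SEA.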

How the results depend on the processing

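No paired analysis was possible because each group has 1 array. Of the single log2 differences of the 9 genes recomputed under 10 alternatives, 304 kept their sign and their side of the threshold, 13 passed the threshold, 7 no longer did, and 5 values within 2-fold changed sign. The 1.5-fold and 3-fold thresholds change no log2 value, and the choice of probe set cannot change genes with 1 probe set (Tlr2, Tlr6, Cd14 and Ly96). Part of the 304 was therefore fixed in advance, and that count is no measure of robustness. No gene past 2-fold changed sign. Scaling to the hybridisation controls gave, for LPS over media, 1 of the 9 lower (0 as reported), 7 pathway genes higher (11) and 12 lower (5). It gave 1 of the 9 and 1 pathway gene higher for SEA/LPS over LPS (0 and 0) with 1 lower (5), and 5 pathway genes higher (8) and 4 lower (0) for SEA/LPS over SEA. For the difference of SEA differences it gave 0 of the 9 lower (1), 6 pathway genes higher (2) and 1 lower (6). For SEA/LPS over LPS, scaling to the 75th percentile put 1 of the 9 past 2-fold higher, as did the mean of probe sets, and quantile normalization put 1 of the 9 and 1 pathway gene there. The mean of probe sets put 1 of the 9, Tlr4, lower with LPS over media and left 2 higher (3), as Tlr7 (0.93) no longer passed 2-fold. Without cross-hybridising probe sets, SEA/LPS over SEA had 0 of the 9 (1) and 4 pathway genes (8) higher, with fewer probe sets read and Tlr3 at a bound of 0.20 log2 for LPS over media. A floor at the 25th percentile put 1 pathway gene lower there. At 1.5-fold, 1 of the 9 and 11 pathway genes were lower with LPS over media, 1 of the 9 and 1 pathway gene were higher and 3 lower with SEA over media, 2 of the 9 and 3 pathway genes higher and 9 lower with SEA/LPS over LPS, 2 of the 9 and 17 higher and 6 lower with SEA/LPS over SEA, and 2 of the 9 lower and 7 pathway genes higher in the difference of SEA differences. At 3-fold the pathway counts were 7 higher and 1 lower with LPS over media, 1 lower with SEA/LPS over LPS, 4 higher with SEA/LPS over SEA, and 0 higher and 1 lower in the difference of SEA differences, where 0 of the 9 were lower. The cause was not tested where a scaling moved a count. Signals near the floor, as for Tlr6 and the weaker Tlr7 and Tlr3 probe sets, limit how far small differences can be read.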
